A study of Mus musculus with 6 samples.

Results

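The apolipoprotein genes of mouse liver were examined across 4 RNAs on 6 arrays, as 10 genes that encode secreted lipid carriers: Apoa1, Apoa2, Apoa4, Apoa5, Apob, Apoc1, Apoc2, Apoc3, Apoe and Apoh. A gene counted as measured when a non-control probe carried its symbol, either in the probe description or through the accession of the probe. By this rule 9 of the 10 were measured, of 10061 genes with a symbol on the arrays, each by 1 probe printed as 1 spot. Apob had no such probe. The 3 probes described as apolipoprotein B or as weakly similar to it carried no symbol and were left out of every count; their log2 ratios in the tumour comparison were -0.10, 0.02 and 0.29, and 0 of the 3 passed the test in any comparison.

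All RNA came from C3H/HeNCrlBR mice aged 39 weeks, each given diethylnitrosamine (DEN), a carcinogen that starts liver tumours. The 4 RNAs were wild-type (WT) liver after DEN and phenobarbital (PB, a tumour promoter supplied in drinking water), liver tumour of WT mice given both agents, CAR-KO liver from mice given both agents, and CAR-KO liver from mice given DEN but no PB. CAR is a nuclear receptor encoded by Nr1i3, which PB activates. Each array carried a Cy3 and a Cy5 labelled RNA, and each of the 3 comparisons was run as a pair of arrays with the dyes exchanged. The PB-treated CAR-KO liver RNA was on all 6 arrays, so the comparisons share it. The labels do not say how the CAR allele was made, whether animals were pooled, or whether dye-swapped arrays shared RNA extracts, so every test rests on the spread between such arrays, which may be technical. The series looked for CAR-regulated genes that rise while liver tumours develop.

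Apolipoproteins coat the lipid droplets of plasma lipoproteins, keep them soluble and direct them to enzymes and receptors. Apoa1 and Apoa2 encode the main structural proteins of high-density lipoprotein, Apob the backbone of chylomicrons and very-low-density lipoprotein, and the Apoc genes and Apoa5 small exchangeable proteins that tune lipoprotein lipase. Apoe encodes the ligand by which remnants are taken up, Apoa4 a protein of chylomicrons and nascent hepatic particles that is mostly intestinal, and Apoh beta-2-glycoprotein I, a plasma protein that binds phospholipid. Hepatocytes are the main source of most of them, and macrophages also make Apoe.

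The median of local background lay between 53 and 62 except on tumour array 2, read on another scanner, where it was 288 to 299, and 9 to 30 spots per array were saturated. For Nr1i3 the fitted log2 ratio to CAR-KO liver was 0.79 ± 0.16 (SE) in WT liver, which did not pass (limma adjusted p = 0.412), and 1.81 ± 0.16 in WT tumour. Whether that probe lies in the part that was deleted is not given in the sources used here, so these values do not check the genotype. Cyp2b10, the classical PB-induced gene, was higher in WT liver than in CAR-KO liver (1.89 ± 0.16) and higher in WT tumour (2.30 ± 0.16). The 5 measured hepatocyte markers of a list of 10 were well above background in both channels of all 6 arrays, and 0 of the 5 passed the test in any of the 4 comparisons (limma, with at most 1 at an unadjusted p under 0.05 in a comparison). Of these, Ahsg was saturated in Cy5 on WT array 1 and PB array 1 and in both channels of tumour array 2. Its tumour log2 ratio of -0.63 ± 0.17 (limma unadjusted p = 0.0068) rests in part on those saturated channels.

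All 9 measured apolipoprotein probes were well above background in all 12 channels, and 5 of them were never saturated: Apoa1, Apoa4, Apoa5, Apoc2 and Apoc3. Apoh, whose mean signal lay between 13764 and 53008 in the other channels, was saturated at 65517 in the CAR-KO channel of tumour array 2. Apoa2 was at the upper limit of the scanner, with 100% of pixels saturated, in 6 of 12 channels, Apoc1 in 9 and Apoe in 8. Their other channels read 29440.0 to 47396 for Apoa2, 41683 to 57075 for Apoc1 and 30763 to 64512 for Apoe. Every WT tumour channel of these 3 genes was saturated, as was the CAR-KO channel of tumour array 2. On that array the 3 genes therefore had the same raw signal in both channels and the same log2 ratio of -0.62 after normalization. On WT array 2, Apoc1 and Apoe likewise had both channels saturated and the same log2 ratio of -0.77. For Apoa2, Apoc1 and Apoe 0 of the tumour arrays and 0 of the WT liver arrays were free of saturation, so their ratios below are printed as measured and no fold is given for them.

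**Figure D1:**
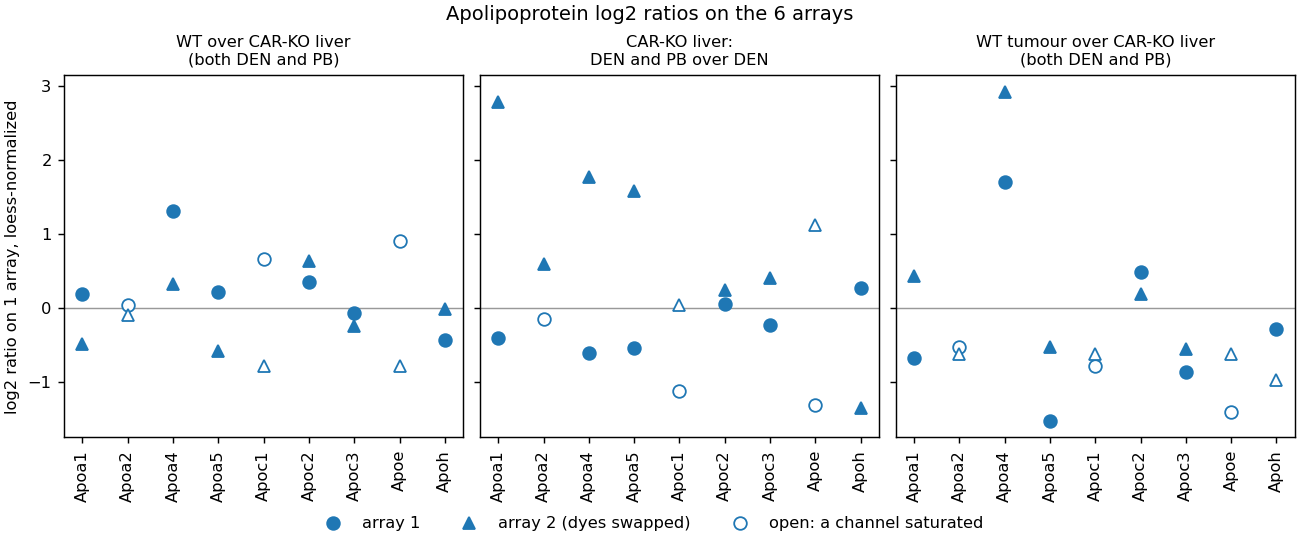
Log2 ratio of each measured apolipoprotein (x axis) on each array (y axis, loess-normalized and turned so that the first-named RNA is the numerator) in the 3 pairs of arrays; circles are array 1, triangles array 2 with dyes swapped, and open symbols mark a saturated channel. Apoa4 lies at 1.70 and 2.93 in WT tumour, while Apoa1 lies at -0.40 and 2.79 in the PB pair.

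WT tumour was set against CAR-KO liver with both treated alike, which changes genotype and tissue state together, so these cannot be told apart here. Apoa4 was 4.97-fold higher in WT tumour and was the 1 apolipoprotein of 9 that passed the test, with 0 lower (11.1% of the 9, against 3.36% of all 20744 probes tested in either direction, 2.53% higher and 0.839% lower). The other 8 did not pass, and 7 of them had negative log2 ratios. The median over the 9 was -0.62, against -0.01 over all probes tested. At an unadjusted p under 0.05, 1 of the 9 was higher and 6 were lower, while 4858 of all 20744 probes were under it, where chance alone gives 1037. Apoa2, Apoc1 and Apoe, whose tumour channels were saturated, are 3 of these 6; with saturated spots missing, 6 of the 9 genes kept a tumour value, 2 positive and 4 negative. Among the 1982 probes at least as bright as the dimmest of the 9, 88 were called higher and 95 lower, which is 9.23%. In bulk RNA, fewer cells of a type and less RNA per cell cannot be told apart.

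Apoa4 had the largest log2 ratio of the 9 in WT tumour. On tumour array 1 its mean signal was 2569.6 for WT tumour in Cy5 and 473 for CAR-KO liver in Cy3, and on tumour array 2 it was 8921 for WT tumour in Cy3 and 957 for CAR-KO liver in Cy5. WT tumour was thus the brighter RNA in either dye. The normalized log2 ratios were 1.70 and 2.93, and the fit gave 2.31 ± 0.24 (SE, 95% interval 1.75 to 2.88, limma adjusted p = 0.00343). Over 16 other ways of processing the arrays the log2 ratio ran from 2.09 to 2.88, and the call held in 13 of them, with adjusted p from 0.000164 to 0.185. The call was lost with the signals processed by the Agilent software (2.39 ± 0.41, adjusted p = 0.185), with the pair fitted alone (adjusted p = 0.0653) and without a dye term (adjusted p = 0.0738).

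On a scale of normalized log2 signal per channel, Apoa4 had its lowest mean in CAR-KO liver without PB, at 8.18 ± 1.46 (SD, n = 2 channels). It stood at 8.82 ± 0.22 (n = 6) in CAR-KO liver with PB, at 9.60 ± 0.57 (n = 2) in WT liver and at 11.23 ± 0.47 (n = 2) in WT tumour. The channels of CAR-KO liver without PB, from 7.15 to 9.22, overlapped those of CAR-KO liver with PB and of WT liver. Both WT tumour channels, at 10.89 and 11.56, lay above all the other channels, of which the highest was from WT liver. The Apoa4 level is not independent of the ratios above, since it was made from the same spots. How many of all probes have WT tumour channels apart from the others was not counted.

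Apoa4 lies in a cluster on chromosome 9 in the order Apoa1, Apoc3, Apoa4, Apoa5 in the RefSeq table of assembly GRCm38.p6. The promoters of Apoa4 and of 2 cluster genes that did not share its tumour ratio are shown so that the 3 can be set side by side; RefSeq sequences (GRCm38.p6) matched 7 of the 9 genes, Apoc1 and Apoc3 not among them. Each window is the 250 bases before the annotated start on the plus strand, in lower case, with the motif TATAAA in capitals where present.
Apoa4, chr9:46240594-46240843: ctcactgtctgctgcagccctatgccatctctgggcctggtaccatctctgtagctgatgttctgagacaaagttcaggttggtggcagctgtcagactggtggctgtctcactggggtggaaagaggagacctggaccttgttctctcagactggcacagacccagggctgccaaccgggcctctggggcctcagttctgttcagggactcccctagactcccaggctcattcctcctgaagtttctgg
Apoa1, chr9:46228380-46228629: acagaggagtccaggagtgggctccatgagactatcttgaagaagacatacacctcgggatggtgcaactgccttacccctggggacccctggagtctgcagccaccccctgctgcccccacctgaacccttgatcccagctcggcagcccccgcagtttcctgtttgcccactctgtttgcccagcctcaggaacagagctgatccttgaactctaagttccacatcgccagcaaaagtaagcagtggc
Apoa5, chr9:46268358-46268607: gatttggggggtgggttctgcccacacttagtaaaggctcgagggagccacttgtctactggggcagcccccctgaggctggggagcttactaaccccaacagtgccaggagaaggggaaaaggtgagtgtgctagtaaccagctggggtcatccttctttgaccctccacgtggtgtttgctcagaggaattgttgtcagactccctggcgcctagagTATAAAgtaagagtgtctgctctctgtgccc
The motif TATAAA, the nuclear receptor motif AGGTCA and the box CCAAT were searched on both strands. The Apoa5 window holds TATAAA, whose first base lies 31 bases before the start, and the Apoa4 and Apoa1 windows hold none of the 3 motifs. Of all 32851 promoter windows of this length in the table, 12.4% hold TATAAA, 14.0% hold AGGTCA and 33.8% hold CCAAT. Of the 11 windows of the 7 matched genes, 4, 3 and 2 hold them. Some genes have several windows, so these counts are not of separate genes. The Apoa5 windows overlap and hold the same TATAAA, and both windows with CCAAT are of Apoa2. A match here describes letters in a window and says nothing on binding.

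The neighbours of Apoa4 in the cluster had tumour ratios that were not above 0 on the fit. Apoa1 had signals of 7761 for WT tumour and 5285 for CAR-KO liver on tumour array 1, and 19273 and 9078 on tumour array 2. Its log2 ratios of -0.68 and 0.43 had opposite signs, and the fit gave -0.12 ± 0.38 (95% interval -1.01 to 0.76, limma adjusted p = 0.876). Apoc3, which encodes an inhibitor of lipoprotein lipase and of remnant uptake, had signals of 3587 for WT tumour and 2965 for CAR-KO liver on tumour array 1, and 8614 and 7829 on tumour array 2. Its log2 ratios were negative on both arrays, at -0.87 and -0.55, and the fit of -0.71 ± 0.16 missed the threshold (limma adjusted p = 0.0661). Apoa5, which encodes an activator of lipoprotein lipase, had signals of 1649.7 for WT tumour and 2276 for CAR-KO liver on tumour array 1, and 5888 and 5267 on tumour array 2. The log2 ratios of Apoa5 were -1.52 and -0.53, the fit gave -1.02 ± 0.24, and it missed the threshold too (limma adjusted p = 0.0689). Apoc3 passed as lower without background subtraction (adjusted p = 0.0411). Apoc3 and Apoa5 both passed as lower (adjusted p = 0.0462 each) when only probes well above background in both channels of all arrays were tested, which shortened the list of probes over which p was adjusted.

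**Figure D2:**
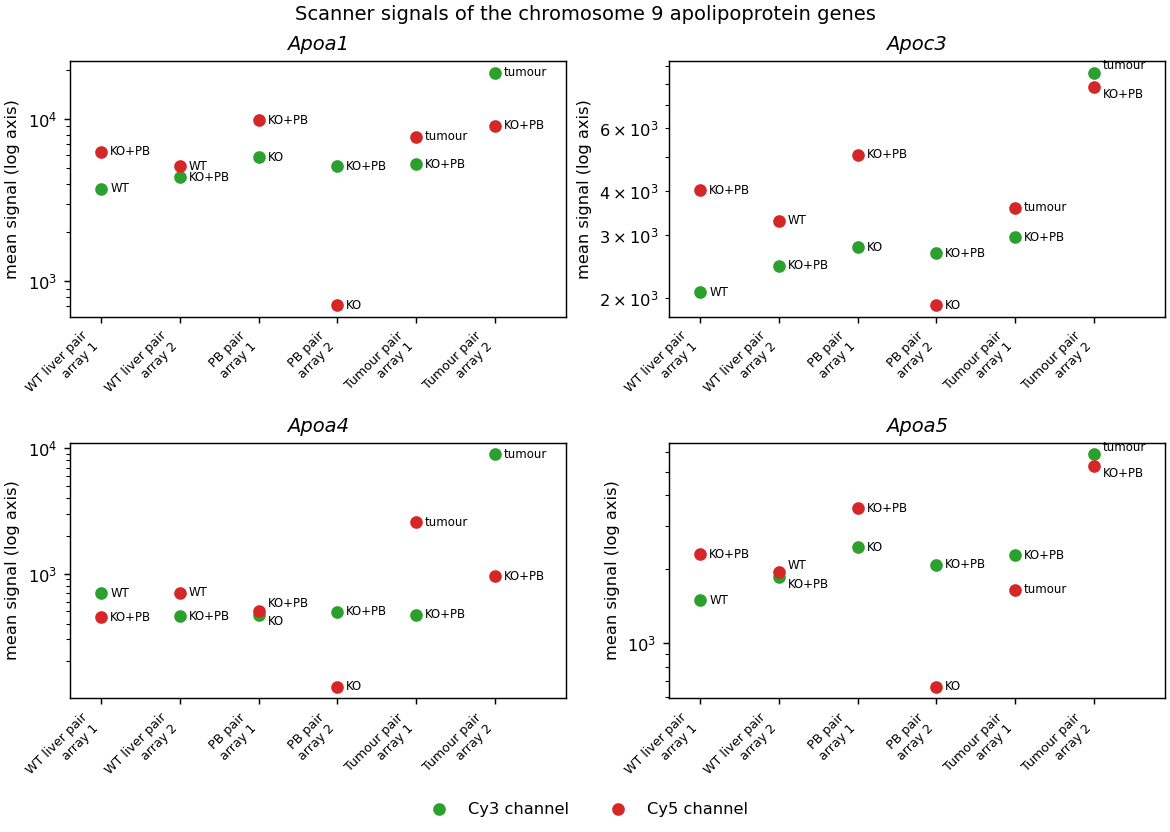
Mean scanner signal (y axis, log scale, before normalization) of Apoa1, Apoc3, Apoa4 and Apoa5 on each array (x axis), with Cy3 in green and Cy5 in red and each point labelled by its RNA (WT, WT liver; KO+PB and KO, CAR-KO liver with and without PB; tumour, WT tumour). Apoa4 is brightest in the tumour channels, at 2569.6 and 8921, and Apoa1, Apoa4 and Apoa5 are dimmest in the CAR-KO channel without PB of PB array 2, at 715, 126 and 663.

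A further cluster lies on chromosome 7, in the RefSeq order Apoc2, Apoc4, Apoc1, Apoe. Apoc2, which encodes the cofactor that lipoprotein lipase needs, was not saturated and had signals of 12458 for WT tumour and 3775 for CAR-KO liver on tumour array 1, and 23465 and 13071 on tumour array 2. Its log2 ratios were 0.50 and 0.19, and the fit of 0.34 ± 0.17 did not pass (limma adjusted p = 0.257). Apoc4, no member of the 9, had a fit of -0.31 ± 0.17. The log2 ratio of Apoc1, which encodes an inhibitor of lipase and of receptor uptake, was -0.78 and -0.62 on the arrays (fit -0.70 ± 0.23, limma adjusted p = 0.139). That of Apoe was -1.40 and -0.62 (fit -1.01 ± 0.26, limma adjusted p = 0.0901). On tumour array 1 the WT tumour channel of both was saturated at 65215, while CAR-KO liver read 41683 for Apoc1 and 63285 for Apoe, so the true WT tumour signal there can only be higher than recorded. Without tumour array 1 the fit gave -1.28 for Apoc1 (adjusted p = 0.00588), -1.65 for Apoe (adjusted p = 0.00208) and -1.26 for Apoa5 (adjusted p = 0.0427), all called lower. Tumour array 2, the 1 tumour array left in that fit, had both channels of Apoc1 and Apoe saturated, so those calls rest on a saturated array.

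Apoa2 had log2 ratios of -0.53 and -0.62 in WT tumour (fit -0.57 ± 0.19, limma adjusted p = 0.138), again with the WT tumour channel saturated on both arrays. Apoh had signals of 43400 for WT tumour and 20176 for CAR-KO liver on tumour array 1, and 51812 and the saturated 65517 on tumour array 2. The log2 ratios of Apoh were -0.27 and -0.97, and the fit of -0.62 ± 0.22 did not pass (limma adjusted p = 0.159). On tumour array 1, the 1 array of the pair free of saturation for Apoh, the CAR-KO signal was in Cy3 and the WT tumour signal in Cy5.

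The levels per RNA placed the other unsaturated genes on the same log2 scale of normalized signal. Apoc2 stood at 13.10 ± 0.02 (SD, n = 2) in WT liver and 12.94 ± 0.14 (n = 2) in WT tumour, against 12.64 ± 0.10 (n = 6) in CAR-KO liver with PB and 12.56 ± 0.15 (n = 2) without. All 4 WT channels of Apoc2, of which the lowest was 12.84, lay above all 8 CAR-KO channels, of which the highest was 12.73. Neither the WT liver nor the WT tumour ratio of Apoc2 to CAR-KO liver passed the test. Apoc3 stood at 11.31 ± 0.10 (n = 2) in WT tumour, with both channels below the lowest channel of the other RNAs (11.39 against 11.53). The levels of Apoc3 were 11.66 ± 0.18 (n = 2) in WT liver, 11.91 ± 0.13 (n = 6) in CAR-KO liver with PB and 11.81 ± 0.30 (n = 2) without, and these 3 overlapped. The WT tumour channels of Apoa1 and Apoa5 fell within the range of the other RNAs, from 10.13 to 13.16 for Apoa1 and from 10.01 to 11.82 for Apoa5. Both low ends came from CAR-KO liver without PB. The WT tumour channels of Apoa5 stood at 10.159 and 10.825. The lower of them lay below the lowest channel of WT liver (10.755) and of CAR-KO liver with PB (11.069). As with Apoa4, these levels come from the same spots as the ratios. How many of all probes have channels that part by RNA in these ways was not counted.

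The sign of 4 of the 8 uncalled ratios turned with the normalization. Loess, which removes a trend with brightness, put the median log2 ratio of the 1982 bright probes at -0.03, and centring each array on its median, which leaves that trend in, put it at 0.53. With median centring 6 of the 9 apolipoproteins were positive and 3 negative, and Apoa1 (0.57), Apoa2 (0.18), Apoc1 (0.06) and Apoh (0.12) changed sign. Apoa5 (-0.40), Apoc3 (-0.04) and Apoe (-0.24) stayed negative and Apoc2 stayed positive. Relative to the bright probes, 7 of the 9 lay below their median with loess and 6 with median centring. Of all probes called, 75.1% were higher with loess and 57.3% with median centring. Apoa4 was called higher under both, at 2.31 and 2.88, and Apoc2 was called with median centring (1.04 ± 0.18, limma adjusted p = 0.0127) but under none of its other 15 alternatives.

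**Figure D3:**
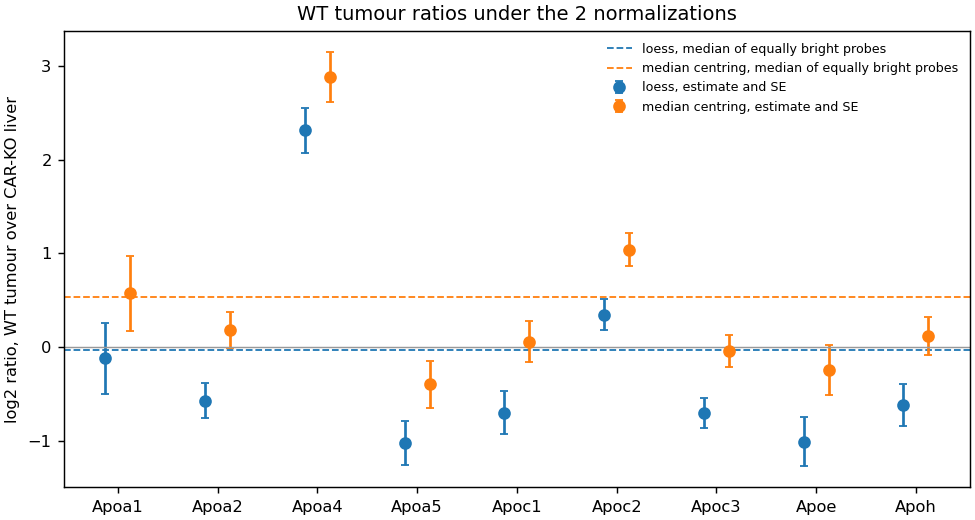
Fitted log2 ratio of WT tumour over CAR-KO liver (y axis, bars are SE) for each measured apolipoprotein (x axis), with loess in blue and median centring in orange. Dashed lines, labelled as equally bright probes, are medians of the 1982 probes at least as bright as the dimmest of the 9, at -0.03 and 0.53. Those probes were not matched in brightness to each gene. Apoa4 stands above both lines under either setting. Apoa2, Apoa5, Apoc1, Apoc3, Apoe and Apoh stand below the line of each setting.

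WT liver was then compared with CAR-KO liver, treated alike, which asks what the loss of CAR changes. None of the 9 apolipoproteins passed the test in limma, 0 higher and 0 lower, against 0.101% of the 20743 probes tested (0.0916% higher and 0.00964% lower); 2 had an unadjusted p under 0.05. Of the 9, 3 log2 ratios were positive and 6 negative, with a median of -0.05, against -0.02 over all probes tested. The unadjusted p fell under 0.05 for 471 probes where chance alone gives 1037, so the p-values ran large in this comparison and a miss does not show that a gene did not differ.

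Apoa4 and Apoc2 were the pair with unadjusted p under 0.05, and both were positive on both arrays. Apoa4 had signals of 702.5 for WT liver and 449 for CAR-KO liver on WT array 1, and 704 and 459 on WT array 2. WT liver was the brighter RNA in either dye. The log2 ratios were 1.31 and 0.32, and the fit gave 0.82 ± 0.24 (95% interval 0.25 to 1.39), which did not pass. Over 16 alternatives it ran from 0.41 to 1.22 and was called under 0 of them, with a lowest limma adjusted p of 0.156. Apoc2 had signals of 4879 for WT liver and 7524 for CAR-KO liver on WT array 1, and 9880.0 and 3933 on WT array 2, so the brighter RNA changed with the dye. After normalization its log2 ratios were 0.35 and 0.64, with a fit of 0.49 ± 0.17 (95% interval 0.10 to 0.88).

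The remaining 7 had fitted log2 ratios from -0.22 (Apoh) to 0.07 (Apoe) in WT over CAR-KO liver. For Apoc3 the interval was -0.53 to 0.22, and for Apoa1 it was -1.03 to 0.75. Apoa1, Apoa2, Apoa5, Apoc1 and Apoe had a positive log2 ratio on WT array 1 and a negative one on WT array 2, with 0.20 and -0.48 for Apoa1 and 0.22 and -0.57 for Apoa5. Apoc3 (-0.07 and -0.24) and Apoh (-0.43 and -0.01) were negative on both arrays.

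PB-treated CAR-KO liver was compared with CAR-KO liver that had DEN alone, which asks what PB does without CAR. None of the 9 apolipoproteins passed in limma, as did none of the 20742 probes tested (0%); 3 of the 9 had an unadjusted p under 0.05, as did 565 of all probes, where chance alone gives 1037. The smallest adjusted p of any probe was 0.0937. The log2 ratio changed sign between the arrays for 8 of the 9 genes in this pair, for 5 of the 9 with WT liver and for 1 of the 9 with WT tumour.

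Apoa1 showed the widest gap. On PB array 1 its signal was 9787 with PB and 5816 without, and on PB array 2 it was 5097 with PB and 715 without. The log2 ratios were -0.40 and 2.79, and the fit of 1.19 ± 0.38 (95% interval 0.31 to 2.08) did not pass. Apoa4 had signals of 504 with PB and 473 without on PB array 1, and 497 and 126 on PB array 2, with log2 ratios of -0.60 and 1.78 and a fit of 0.59 ± 0.24. Apoa5 had signals of 3540.2 with PB and 2458 without on PB array 1, and 2085 and 663 on PB array 2, with log2 ratios of -0.54 and 1.59 and a fit of 0.53 ± 0.24. For these 3 genes the CAR-KO liver without PB read much lower in Cy5 on PB array 2 than in Cy3 on PB array 1. That Cy5 channel had the lowest median signal of the 12 channels, at 129, and the lowest share of spots well above background, at 84.4%; its part in these values was not tested.

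Apoh ran the other way in the PB pair, with signals of 53008 with PB and 18224 without on PB array 1, and 20347 and 52763 on PB array 2. In both cases the Cy5 channel was the brighter. The log2 ratios of Apoh were 0.27 and -1.35, and the fit was -0.54 ± 0.22. Apoc2 (0.05 and 0.24) was the 1 gene positive on both PB arrays, and Apoc3 (-0.22 and 0.41), Apoa2 (-0.15 and 0.60) and Apoc1 (-1.12 and 0.05) changed sign. Apoe had log2 ratios of -1.31 and 1.12, with the PB-treated channel saturated on both arrays and the untreated channel at 64512 and 30763. Without PB array 2, 1 of the 9 fitted log2 ratios was positive, and without PB array 1, 7 were.

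WT tumour was set against WT liver indirectly, by subtracting one ratio to CAR-KO liver from the other, which share that RNA. None of the 9 passed in limma, as did none of the 20743 probes tested (0%), and 4 of the 9 had an unadjusted p under 0.05, as did 1737 of all probes, where chance alone gives 1037. Apoa4 had the largest difference, a log2 ratio of 1.49 ± 0.34 (95% interval 0.69 to 2.30, adjusted p = 0.345), and Apoe the most negative, -1.08 ± 0.37 (adjusted p = 0.576). Apoa5 stood at -0.85 ± 0.34, Apoc3 at -0.55 ± 0.23 and Apoa1 at 0.02 ± 0.54. Without tumour array 2 the Apoa4 difference was 1.72 ± 0.37 and passed (adjusted p = 0.0110), and over 15 alternatives it was called under 1. Apoe was called under 1 of 14, without tumour array 1 (-1.72 ± 0.29, limma adjusted p = 0.0198), where the tumour array left had both of its channels saturated.

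Over the 6 turned log2 ratios, the genes whose pattern lay nearest to that of Apoa4 by Euclidean distance were Ephx1 (0.934), Krt8 (1.19) and Cyp1a2 (1.24). Ephx1 encodes microsomal epoxide hydrolase, a drug-metabolizing enzyme, and had log2 ratios of 1.44 and 0.28 in WT liver, -0.54 and 1.76 in the PB pair and 1.02 and 2.31 in WT tumour. Krt8, a keratin of hepatocytes and other simple epithelia, had 0.95 and 0.70, -0.06 and 1.67, and 1.74 and 2.01. Cyp1a2, a pericentral P450 enzyme, had 1.47 and 0.66, -0.32 and 2.09, and 0.92 and 2.15. All 3 shared with Apoa4 the high value on PB array 2. That value was not particular to them, since Apoa1 (2.79), Apoa5 (1.59), P4hb (2.47) and Scarb1 (2.20) were also high there. Other genes were negative there, such as Apoh (-1.35) and Pon1 (-1.17). The points share arrays and the CAR-KO liver RNA, so the likeness of Ephx1, Krt8 and Cyp1a2 to Apoa4 is a description.

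Lipoprotein genes around the apolipoproteins were taken from a list of 63, of which 50 were tested. In the tumour comparison, 4 passed as higher and 1 as lower (10% of the 50, against 3.36% of all probes), 21 log2 ratios were positive and 29 negative, and the median was -0.07. In the other 3 comparisons 0 of the 50 passed in limma, while 5, 9 and 8 had an unadjusted p under 0.05 in WT liver, PB and the indirect comparison. Of all probes tested, 471 of 20743, 565 of 20742 and 1737 of 20743 were under it.

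Among secreted enzymes and transfer proteins, Lpl, the lipase that hydrolyses lipoprotein triglyceride, was 3.91-fold higher in WT tumour. Its signals were 739 for WT tumour and 216 for CAR-KO liver on tumour array 1, and 1900.3 and 517 on tumour array 2, with log2 ratios of 1.88 and 2.05 (fit 1.97 ± 0.21, limma adjusted p = 0.00341). Pltp, the phospholipid transfer protein gene, had 0.70 ± 0.15 and missed the threshold (adjusted p = 0.0567). Its CAR-KO signal on tumour array 2 was 322, near the local background of 298. Lipc, the hepatic lipase gene, had 0.39 ± 0.19, and Lcat, whose enzyme esterifies cholesterol on high-density lipoprotein with Apoa1 as its activator, had -0.15 ± 0.18.

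Of the assembly genes, Apobec1, which encodes the enzyme that edits the Apob transcript, was 2.08-fold higher (1.06 ± 0.15, limma adjusted p = 0.0136), with log2 ratios of 1.18 and 0.93. Its signals were low, at 278 for WT tumour and 185 for CAR-KO liver on tumour array 1 (local background 61 and 58). On tumour array 2 they were 742 and 430 (background 288 and 299). Sar1b, whose GTPase moves lipoproteins out of the endoplasmic reticulum, was 1.84-fold higher (0.88 ± 0.16, limma adjusted p = 0.0325). Mttp, which encodes the protein that loads lipid onto Apob, had 0.11 ± 0.17, with -0.37 and 0.59 on the arrays. Of 5 assembly genes tested, 2 were higher (40%, against 2.53% of all probes called higher). All 5 log2 ratios were positive, as were 49.4% of those of all probes. The Sar1b call held under 8 of 16 alternatives and the Apobec1 call under 11.

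Of 9 receptors tested, 1 passed (11.1%, against 3.36% of all probes). It was Cd36, a scavenger receptor and fatty acid transporter, which was 3.46-fold higher (1.79 ± 0.20, limma adjusted p = 0.00425), with log2 ratios of 1.90 and 1.68. Its signals were low, at 256 for WT tumour and 143 for CAR-KO liver on tumour array 1 (local background 59 and 56). On tumour array 2 they were 798 and 369 (background 287 and 298). Over 15 alternatives the Cd36 log2 ratio ran from 1.06 to 2.70, and the call held under 13. Lrp1, the remnant receptor, had -0.29 ± 0.31, and Scarb1, the receptor for high-density lipoprotein, -0.05 ± 0.38. None of the 4 lipid exporters passed, and 1 had an unadjusted p under 0.05. Among 10 other apolipoproteins tested, 1 passed (10%, against 3.36% of all probes). It was Apom, a carrier of sphingosine-1-phosphate on high-density lipoprotein, which was lower (-0.85 ± 0.17, limma adjusted p = 0.0425), with -0.68 and -1.03 on the arrays. The Apom call held under 7 of 16 alternatives, and with median centring its log2 ratio was -0.17. None of the 15 regulators tested passed, and 3 had an unadjusted p under 0.05. Of all 20744 probes tested, 4858 were under it. Hnf4a, a nuclear receptor that drives many apolipoprotein genes, had -0.21 ± 0.15.

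**Figure D4:**
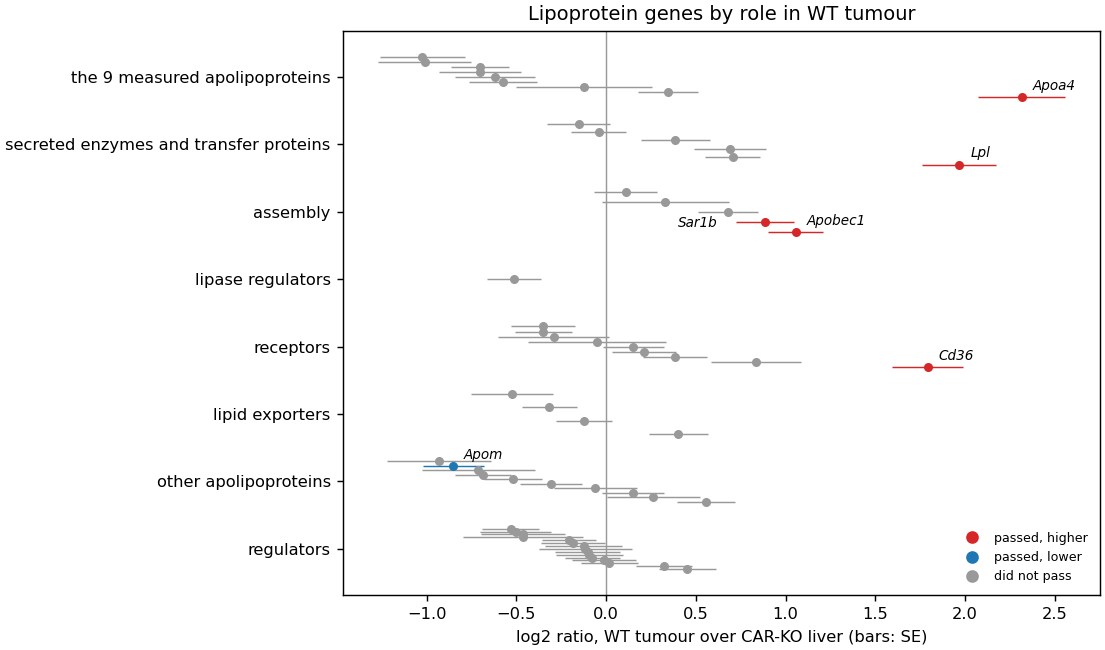
Fitted log2 ratio of WT tumour over CAR-KO liver (x axis, bars are SE) for the 9 measured apolipoproteins and the 50 tested lipoprotein genes, grouped by role (y axis); red and blue mark genes that passed as higher and lower, grey those that did not. Apoa4, Lpl, Cd36, Apobec1 and Sar1b were higher and Apom was lower.

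Markers of other sources of apolipoproteins were read beside the Apoa4 result. Of 9 enterocyte markers 5 were measured, and 1 of the 5 passed in WT tumour (20%, against 3.36% of all probes). It was Vil1, which encodes the microvillus protein villin, at 2.19 ± 0.17 (limma adjusted p = 0.00126). Its signals were low, at 333 for WT tumour and 149 for CAR-KO liver on tumour array 1 (local background 62 and 60). On tumour array 2 they were 995 and 360 (background 288 and 300). Fabp2, the intestinal fatty acid binding protein gene, had 1.16 ± 0.25 (adjusted p = 0.0516). The other 3 did not pass, with 0.50 for Slc5a1, the sodium-glucose transporter gene, 0.34 for the keratin gene Krt20 and -0.26 for the cadherin gene Cdh17, and the median of the 5 was 0.50. Their summed signal was 5414 for WT tumour and 1750.0 for CAR-KO liver on tumour array 1, and 11966 and 4600.0 on tumour array 2, and all 5 were well above background in both channels. Most of the WT tumour sum was Fabp2, with 4481 and 9507. For Cdh17 CAR-KO liver was the brighter RNA on tumour array 1, at 336 against 242. In WT over CAR-KO liver 0 of the 5 passed, 2 had an unadjusted p under 0.05, and all 5 log2 ratios were positive. Lct, Alpi, Sis and Muc2, also on the list, were not measured under these symbols. The part of these markers in the Apoa4 value was not tested.

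Of 10 measured macrophage markers, bearing on Apoe, 1 passed as higher in WT tumour: Ctss (1.14 ± 0.15, limma adjusted p = 0.00989). Of the 10, 7 log2 ratios were positive and 3 negative (Csf1r -0.31, Lyz2 -0.28 and Marco -0.06). The median of the 10 was 0.29, and their summed signal was 5901 for WT tumour and 3549 for CAR-KO liver on tumour array 1, and 12574 and 8366 on tumour array 2. Of 5 stellate cell markers, 1 passed as lower in WT tumour, with 1 log2 ratio positive and 4 negative. Of 6 skeletal muscle markers, 3 passed as lower there, with 2 log2 ratios positive and 4 negative. The shares called were 10% of the macrophage, 20% of the stellate and 50% of the muscle markers, against 3.36% of all probes. The muscle gene Tnnc2 had log2 ratios of -1.78 ± 0.15 in WT over CAR-KO liver, which passed, and 1.78 ± 0.15 in the PB comparison, which did not. It was the most extreme of the 6 in both. In WT over CAR-KO liver 2 of the 6 were positive, Ckm and Actn3 at 0.29 each, and 4 negative (median -0.34). In the PB comparison 5 were positive and 1 negative (median 0.64). The CAR-KO liver RNA with PB is the RNA that these comparisons share. Whether these markers bear on the apolipoprotein ratios was not tested.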

How the data were processed

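RNA was hybridized to 6 Agilent 2-colour arrays. The deposited scanner files hold mean signals and local background medians in intensity units, and a log10 ratio of signals processed by the authors with Agilent Feature Extraction, version 7.1.1 on 5 arrays and 7.5.1 on 1 per the file headers, and 7.5 per the submitters' processing notes. The other deposited columns used were flags per spot. The deposited value table was identical to that log10 ratio. Signals were corrected with normexp (offset 50), normalized by loess within arrays, and fitted with limma 3.58.1 in R 4.3.3 on all 6 arrays, with 3 pair contrasts and a dye effect per probe (2 residual and 5.48 prior degrees of freedom). Spots with outlier flags were missing. Saturated spots were kept. Tests covered the 20744 of 20868 probes (10285 with a symbol) that had a channel well above background on 2 or more arrays, and the threshold was a 2-sided adjusted p (Benjamini-Hochberg, over all of them) of 0.05. SE is the standard error from limma, with 1 spread per probe shared by the comparisons over all 6 arrays. Levels per channel used loess and then quantile scaling of average brightness. The median signal of an array was 186.5 to 494 (Cy3) or 129 to 418 (Cy5), and the number of arrays limits the precision. The scripts were tested on simulated data.

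The genes, lists and tests were chosen with earlier results of these data known. Text names every measured apolipoprotein, up to 6 called lipoprotein genes and 8 others per comparison, 2 check genes, and the 3 genes nearest to the apolipoprotein with the smallest adjusted p; 1 gene of this rule is not reported here. The alternatives were another background correction, the Agilent signals, median centring, array weights, pairs alone, no dye term, 2 other filters, saturated spots missing, non-uniform backgrounds left out, and each array left out.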

Additional observations from a re-analysis of the deposited data

How the results depend on the processing

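Apoa4 in WT tumour kept its direction under all 16 alternatives, and the 3 that ended its call are given with it. With the Agilent signals, 0 probes were called higher and 0 lower for WT liver and for WT tumour. With array weights the counts were 75 higher and 20 lower in WT liver, 1 higher for PB, and 194 higher and 42 lower in WT tumour. With each pair fitted alone they were 69 and 18 in WT liver and 53 and 9 in WT tumour. With median centring they were 4 lower in WT liver, 2370 higher and 1763 lower in WT tumour, and 47 higher in the indirect comparison. WT liver had 4 lower without background subtraction, 1 lower without a dye term and 1 lower without the filter; WT tumour had 99 lower without a dye term; PB had 1 higher under the strict filter. Leaving out 1 array at a time gave 4 to 76 higher and 0 to 18 lower in WT liver, 0 to 6 higher for PB, 218 to 1799 higher and 67 to 2909 lower in WT tumour, and 0 to 426 higher and 0 to 1738 lower in the indirect comparison. The highest tumour counts came without tumour array 2, where 38.2% of called probes were higher. The cause of these shifts was not tested.

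Median centring reversed Apoa1 (0.57), Apoa2 (0.18), Apoc1 (0.058), Apoh (0.12), Lrp1 (0.24), Lcat (0.39), Scarb1 (0.51) and Hnf4a (0.19) in WT tumour, Apoa2 (0.41), Apoc1 (0.32), Apoc2 (0.70), Apoc3 (0.24) and Apoh (0.53) in the indirect comparison, and Apoe in WT liver (-0.14) and for PB (0.24). With the Agilent signals Apoe for PB was 0.049, and without background subtraction Apoa1 in the indirect comparison was -0.030. Leaving out 1 array reversed further uncalled values, whose ranges over the 6 arrays left out were as follows. In WT liver they were -0.88 to 0.60 for Apoa1, -0.12 to 0.066 for Apoa2, -0.56 to 0.21 for Apoa5, -0.44 to 0.33 for Apoc1 and -0.59 to 0.15 for Apoh. For PB they were -0.13 to 0.59 for Apoa2, -0.045 to 1.22 for Apoa4, -0.089 to 1.14 for Apoa5, -0.094 to 0.39 for Apoc2, -0.097 to 0.28 for Apoc3 and -0.69 to 0.51 for Apoe. In WT tumour they were -0.53 to 0.29 for Apoa1, -0.77 to 0.18 for Lrp1, -0.19 to 0.41 for Mttp, -0.31 to 0.00097 for Lcat, -0.0013 to 0.77 for Lipc and -0.69 to 0.58 for Scarb1. In the indirect comparison the range for Apoa1 was -0.72 to 0.76.

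The ratios were already paired, since each array holds both RNAs of its comparison. Each slide holds 1 array, so no further pairing by slide was possible. No apolipoprotein had several probes, so no mean over probes was taken. Non-uniform spots were already missing, so that alternative left out spots with a non-uniform background. Pairs fitted alone give no indirect value, and with saturated spots missing Apoa2, Apoc1 and Apoe have no tumour value. A comparison with 1 array left assumes that it varies like the others. Saturation limits the ratios of the brightest genes.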
